A study of Mus musculus with 4 samples.

Results

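The vacuolar proton pump (V-ATPase) of the mouse stria vascularis (SV) was described through 10 of its subunit genes, chosen by symbol: Atp6v1a, Atp6v1b1, Atp6v1b2, Atp6v1c1, Atp6v1c2, Atp6v1h, Atp6v0a1, Atp6v0a2, Atp6v0a4 and Atp6v0d1. Each symbol occurred once in the gene list of every library, so that the 10 genes were 10 of 27998 genes listed for whole cells and 10 of 48816 genes listed for nuclei. The SV had been dissected from CBA/J mice at postnatal day 30, with no genetic alteration and no treatment, and tissue of several animals was pooled. Whole cells were profiled by single-cell RNA-Seq (scRNA-Seq) in 3 captures and nuclei by single-nucleus RNA-Seq (snRNA-Seq) in 1 capture. The question addressed here was which isoform of each subunit was found in which SV cell type, with marginal, spindle and root cells foremost.

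The V-ATPase is a rotary machine that spends ATP to move protons across a membrane. Its peripheral V1 sector, with the catalytic A subunit and the B, C and H subunits among others, splits ATP. The membrane sector V0, with the a and d subunits, carries the protons. Several subunits exist as isoforms from separate genes. The B1 and a4 isoforms (Atp6v1b1, Atp6v0a4) are known from acid-secreting epithelial cells such as the intercalated cells of the kidney and ionocytes of the inner ear, and loss of either causes renal tubular acidosis with hearing loss in people. B2, C1, a1 and a2 are found in the organelles of many cells, a3 (Tcirg1) is best known from osteoclasts and lysosomes, and C2 is an isoform of restricted distribution. In the SV, marginal cells face the endolymph and secrete potassium, intermediate cells are pigment cells that carry the Kcnj10 channel, basal cells seal the tissue off from the lateral wall, and spindle and root cells at its edges hold the anion exchanger pendrin (Slc26a4).

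The members lay on 8 chromosomes of the mm10 assembly, and the unique molecular identifiers (UMIs) counted here come from the 3′ end of each transcript. Windows of 300 bases around the annotated start, from RefSeq on GRCm38.p6, are shown for 4 members because they belong to the 3 isoforms of restricted distribution and to the d1 subunit that was found in each SV type. Each runs 5′ to 3′ on the strand of its gene, from 250 bases before the start to 50 after it, and capitals mark a motif match. They lie at chr6:83742767-83743066 on the forward strand (Atp6v1b1), and on the reverse strand at chr12:17324681-17324980 (Atp6v1c2), chr6:38124537-38124836 (Atp6v0a4) and chr8:105566015-105566314 (Atp6v0d1). The Atp6v1c2 window lies inside its gene, whose 5′ end stands at 17329359 in the gene position given below, so that its start is a different one.
Atp6v1b1: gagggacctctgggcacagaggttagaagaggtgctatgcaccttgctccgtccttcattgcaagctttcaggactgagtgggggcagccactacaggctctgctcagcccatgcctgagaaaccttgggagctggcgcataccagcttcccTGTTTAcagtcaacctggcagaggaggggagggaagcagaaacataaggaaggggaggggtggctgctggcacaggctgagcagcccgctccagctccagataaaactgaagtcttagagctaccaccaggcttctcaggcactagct
Atp6v1c2: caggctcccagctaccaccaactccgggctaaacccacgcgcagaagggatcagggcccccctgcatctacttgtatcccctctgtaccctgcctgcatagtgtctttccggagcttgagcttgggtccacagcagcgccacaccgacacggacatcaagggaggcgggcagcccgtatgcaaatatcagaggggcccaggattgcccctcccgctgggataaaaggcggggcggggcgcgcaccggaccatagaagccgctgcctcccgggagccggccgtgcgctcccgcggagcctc
Atp6v0a4: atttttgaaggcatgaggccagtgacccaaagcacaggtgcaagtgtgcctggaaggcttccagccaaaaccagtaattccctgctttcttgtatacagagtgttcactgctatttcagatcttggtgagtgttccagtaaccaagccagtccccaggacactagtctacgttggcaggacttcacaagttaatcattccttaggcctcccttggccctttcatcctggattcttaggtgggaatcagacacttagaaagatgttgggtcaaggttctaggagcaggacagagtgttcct
Atp6v0d1: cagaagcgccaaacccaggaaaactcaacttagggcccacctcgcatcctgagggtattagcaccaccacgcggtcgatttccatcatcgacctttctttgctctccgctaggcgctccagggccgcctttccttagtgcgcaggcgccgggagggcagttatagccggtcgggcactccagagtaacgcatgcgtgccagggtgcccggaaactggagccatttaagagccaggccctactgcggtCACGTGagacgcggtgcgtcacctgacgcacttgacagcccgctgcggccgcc
In all, 3 motifs were searched on both strands with no overlap among them: CACGTG, the core bound by lysosomal regulators such as TFEB and by other E-box factors; TAAACA, a forkhead core; and AAGGTCA, an estrogen-related receptor core. RefSeq windows were found for 6 of the 10 members. Atp6v0d1 and Atp6v1a held CACGTG, 2 of 6 windows, and 7.15% of 32851 windows of this length hold it. Atp6v1b1 held the forkhead core, read as TGTTTA on the printed strand, which 13.4% of windows hold. The windows of Atp6v1c2, Atp6v0a1 and Atp6v0a4 held none of the 3 motifs, AAGGTCA being found in 4.72% of windows. These matches are descriptions of the letters only.

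Whole-cell captures 1 to 3 held 392, 1358 and 1580 barcodes with 2811309 to 8340882 UMIs each, and the nuclei capture held 11057 barcodes with 22332501 UMIs. The libraries shared between 0 and 32 barcodes. After filtering, 3152 cells and 9723 nuclei remained. Clusters were named from marker genes, which gave 132 marginal, 972 intermediate, 167 basal and 36 spindle/root cells, and 2575, 1464, 648 and 208 nuclei of these types. Clusters that did not reach a name held 1696 cells and 3902 nuclei, in which mitochondrial genes made up a median of 56.1% and 49.9% of UMIs. Among them was a cluster of 319 cells that scored highest for marginal markers, with 2 raised where a name needed 3. At a clustering resolution of 1.2, 335 cells were named marginal in place of 132. The spindle/root cells divided into 15 spindle-like cells (Anxa1 at 6654 UMIs per 1000000 UMIs, CPM) and 21 root-like cells (Epyc at 4073 CPM). The nuclei divided into 92 spindle-like and 116 root-like ones. Of the 4 spindle-like markers, 3 were raised 2-fold in the spindle-like groups of cells and of nuclei, and Slc26a4 was not. It was at 366 CPM in spindle-like and 445 CPM in root-like cells, and at 683 and 475 CPM in the nuclei. All 4 root-like markers were raised in the root-like groups, though Aqp5 in root-like nuclei rested on 1 UMI (4.70 CPM, against 0 in spindle-like nuclei). Markers of intermediate cells were present in the other types of whole cells. The 9 intermediate markers summed to 5909 to 9678 CPM in marginal cells over the captures, against 20930 to 29369 CPM in intermediate cells, 7138 to 11256 CPM in basal cells and 1648 to 3752 CPM in spindle/root cells. The 8 marginal markers summed to 5168 to 5205 CPM in the marginal cells themselves. In marginal nuclei the intermediate markers summed to 1475 CPM and the marginal markers to 10476 CPM. The 6 fibrocyte markers summed to 51.1 to 2882 CPM in basal cells over the captures. They summed to 21.1 to 43.5 CPM in marginal, 22.4 to 29.2 CPM in intermediate and 64.1 to 77.7 CPM in spindle/root cells. The part of fibrocyte RNA in the basal levels of the members was not tested.

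Levels are given as CPM within 1 capture and type, and the same gene is compared between types. Levels of different genes are compared only as shares of one subunit, since the 3′ assay gives no measure per length that these files allow. Capture 1 held 4 spindle/root cells and gave no sum for that type, which left 11 sums. Of the 10 members, 8 had enough UMIs in the whole-cell sums to enter the edgeR fit. Atp6v1b1 and Atp6v0a4 did not. An adjusted p (Benjamini-Hochberg over the 7127 genes tested) under 0.05 was called. The study's supplement counts the mice capture by capture, and the captures were therefore taken as separate pools of animals. The labels give a single number for all, and the study's methods give differing totals of mice for the whole-cell work. None of these sources states outright that the pools were separate. With capture as a block, the p-values set differences between types against the spread of the sums that type and capture leave over. They do not measure the difference in level between the pools.

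**Figure D1:**
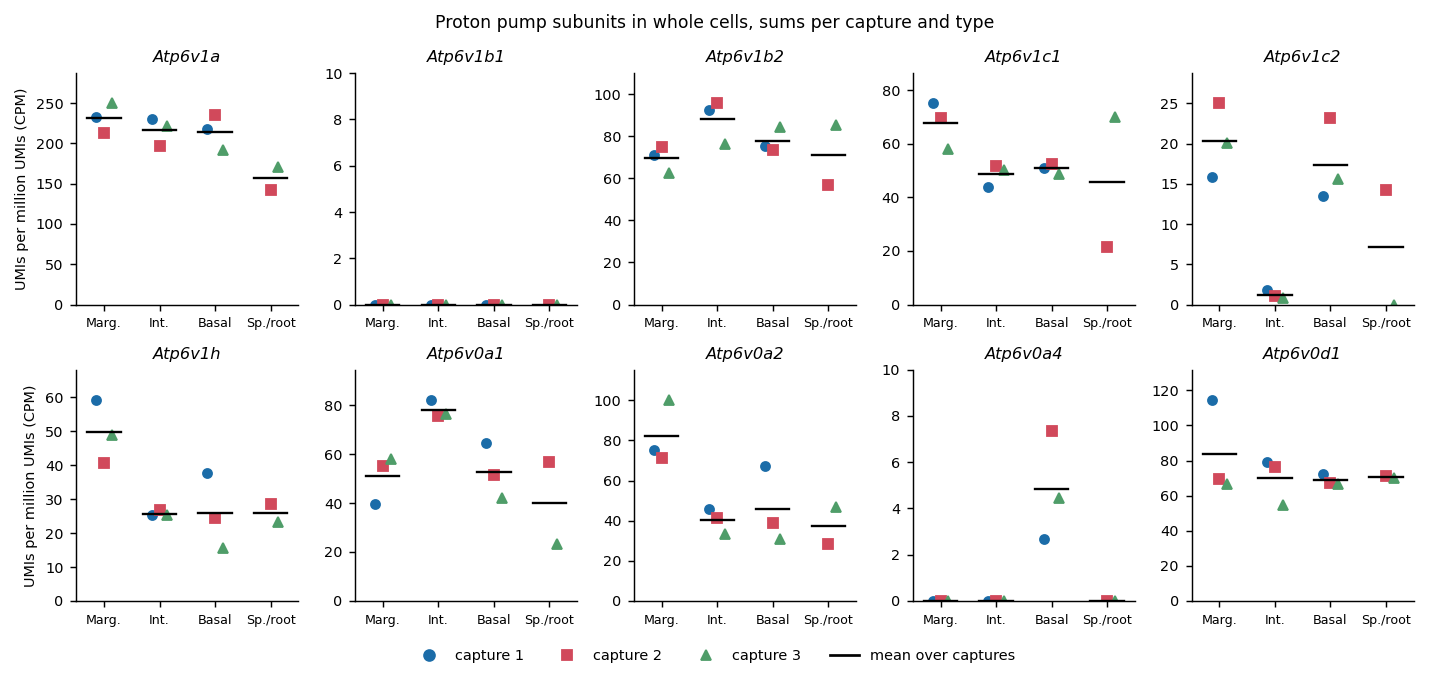
Level of each of the 10 subunit genes in whole cells (y axis, UMIs per 1000000 UMIs on a linear axis that starts at 0) by SV cell type (x axis: marginal, intermediate, basal, spindle/root). Points are captures, black lines are means over captures, and capture 1 has no spindle/root point. Atp6v1c2 lay at 15.8 to 25.0 CPM in marginal cells and at 0.789 to 1.87 CPM in intermediate cells, and Atp6v1b1 was at 0 in every sum.

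The B1 isoform was not detected in any cell type. Atp6v1b1 (chromosome 6, 83742990 to 83758855, forward strand) had 0 UMIs in all 14387 deposited barcodes of the 4 libraries. The 18327476 UMIs of the kept whole cells allow a level of up to 0.164 CPM, and the 18521034 UMIs of the kept nuclei up to 0.162 CPM. For single types the limit was wider, at 2.05 CPM in marginal cells, 8.93 CPM in spindle/root cells, 0.691 CPM in marginal nuclei and 8.35 CPM in spindle/root nuclei. The 0 of 208 spindle/root nuclei allows a share of up to 1.44% of nuclei with a UMI. All UMIs of the B subunit were therefore those of the B2 isoform, and the B1 share was 0% in each of the 11 sums. Foxi1, the forkhead factor that drives B1 and a4 in acid-secreting cells, had 0 UMIs in the whole cells and 1 UMI in the nuclei, in a nucleus with no cell type name. Such limits cover counting error only.

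The a4 isoform was scarce. Atp6v0a4 (chromosome 6, 38048483 to 38124586, reverse strand) had 51 UMIs in the deposited barcodes, each in a barcode of its own. Among the kept whole cells its 9 UMIs all lay in basal cells, with 1, 6 and 2 UMIs in captures 1 to 3, or 2.69, 7.33 and 4.45 CPM. The basal sums also held fibrocyte markers, whose part in these counts was not tested. Marginal, intermediate, spindle/root, erythroid and B cells and the unnamed cells of the 3 captures were at 0. Over all captures, basal cells stood at 5.49 CPM. This was 11.7-fold above a limit of 3 counts over the intermediate cells and 2.67-fold above that limit in marginal cells. These ratios leave out the counting error of the 9 basal UMIs and are not lower bounds. No such ratio was taken against spindle/root cells, whose own limit of 8.93 CPM was above the basal level. Basal cells with an Atp6v0a4 UMI made up 5.39% of 167 cells. Without the filter on low counts, where 9 members were tested, edgeR called Atp6v0a4 higher in basal cells, from these 9 UMIs. In that setting 1361 of 15604 genes were called higher in basal cells. In the nuclei the gene was found in further types. Atp6v0a4 was at 5.43 CPM (exact Poisson 95% interval 1.99 to 11.8) in basal, 2.76 (1.43 to 4.83) in marginal, 2.43 (0.892 to 5.29) in intermediate and 14.1 (2.91 to 41.2) in root-like nuclei, the last from 3 UMIs. B cell and erythroid nuclei, taken as background, were at 4.93 CPM (0.597 to 17.8) and 0.373 CPM (0.00945 to 2.08). The intervals of the SV types all overlapped with that of B cell nuclei, which rests on 2 UMIs. The interval of root-like nuclei lay above that of erythroid nuclei, and those of basal, marginal and intermediate nuclei overlapped with it. The a4 share of the a1, a2 and a4 UMIs was 5.07% ± 2.81 (SD, n = 3) in basal cells and 0% in the other 3 types. In the exact permutation test within captures the a4 share of marginal cells differed from that of the other types by -1.80 points (two-sided p = 0.5), and that of spindle/root cells by -2.20 points (p = 0.812). Both adjusted p-values were 1 over 6 share tests, and the smallest p that the designs allow was 0.0208 for marginal and 0.0625 for spindle/root cells. Tmem213 on the opposite strand and D630045J12Rik on the same strand overlap exons of Atp6v0a4, so that its counts are uncertain.

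The C2 isoform showed the widest range between types among the members tested. Atp6v1c2 (chromosome 12, 17284721 to 17329359, reverse strand) was at 15.8, 25.0 and 20.1 CPM in the marginal cells of captures 1 to 3, and at 13.4, 23.2 and 15.6 CPM in basal cells. Intermediate cells had 1.87, 1.07 and 0.789 CPM. The intermediate sums did not overlap with those of marginal or basal cells, while the marginal and basal sums overlapped with each other. In spindle/root cells it was at 14.2 CPM in capture 2, from 2 UMIs in root-like cells, and at 0 in capture 3. The 15 spindle-like cells had 0 UMIs, which at their depth allows up to 15.3 CPM. In the edgeR quasi-likelihood fit with capture as a block, Atp6v1c2 was higher in marginal cells than in the mean of the other 3 types by 1.84 on the log2 scale (SE 0.49; edgeR adjusted p = 0.0023; 3 of 3 captures). It was higher in basal cells by 1.75 (SE 0.49, edgeR adjusted p = 0.0046, 3 of 3 captures), and in intermediate cells it fell by 3.24 on the log2 scale (SE 0.80, edgeR adjusted p = 0.00074, lower in 3 of 3). Intermediate cells, at 0.789 to 1.87 CPM, and the spindle/root sum at 0 enter the means that marginal and basal cells were set against. The spindle/root difference was -0.35 with an SE of 1.22. These fits rest on 32, 31, 7 and 2 UMIs over all captures in marginal, basal, intermediate and spindle/root cells. Capture 2 alone held 19 of the 32 marginal UMIs, and without it Atp6v1c2 no longer passed the filter on low counts. The gene passed that filter through its marginal and basal sums, the types then called higher. Its entry into the fit is therefore tied to these calls.

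Among cells, 22.7% of 132 marginal and 15.6% of 167 basal cells had an Atp6v1c2 UMI, against 0.720% of 972 intermediate cells, at median depths of 11370, 9060 and 6112 UMIs. Erythroid cells, with a median of 10220 UMIs, had it in 0 of 101 cells, which allows a share of up to 2.97%. With every cell thinned to 1000 UMIs, 1 of 132 marginal and 3 of 167 basal cells kept a UMI, too few to give an order. The nuclei were less sparse. Atp6v1c2 was at 92.2 CPM (exact Poisson 95% interval 83.3 to 102) in marginal, 63.4 (49.4 to 80.1) in basal, 22.3 (9.61 to 43.9) in spindle/root and 10.9 (7.20 to 15.9) in intermediate nuclei. The intervals of marginal and basal nuclei did not overlap with each other or with those of the other 2 types. In the basal nuclei the 8 marginal markers summed to 2804 CPM and the 9 intermediate markers to 5263 CPM, both above the 1734 CPM of the 6 basal markers, and the part of marginal RNA in their Atp6v1c2 level was not tested. Spindle-like and root-like nuclei, at 20.5 (4.22 to 59.8) and 23.5 (7.63 to 54.8) CPM, were indistinguishable at this depth. Erythroid and B cell nuclei had 4.11 and 7.40 CPM. After thinning to 1000 UMIs, 9.04% of 2522 marginal nuclei held a UMI of Atp6v1c2, against 5.90% of 627 basal, 0.919% of 1415 intermediate and 0 of 486 erythroid nuclei. Pdia6 overlaps an exon of Atp6v1c2 on the opposite strand.

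As a share of C subunit UMIs, C2 made up 17.4%, 26.4% and 25.7% in the marginal cells of captures 1 to 3 and 20.8%, 30.6% and 24.1% in basal cells, with means of 23.2% ± 5.01 and 25.2% ± 4.99 (SD, n = 3). In intermediate cells it was 2.55% ± 1.35. Spindle/root cells gave 40% (2 of 5 UMIs) in capture 2 and 0% (0 of 9) in capture 3. The C2 share of marginal cells was 8.08 points above the mean of the other types, with an exact permutation p of 0.458 (two-sided, adjusted p = 1). That of spindle/root cells was 1.59 points above the others (exact permutation p = 1). With smallest raw p-values of 0.0208 and 0.0625, 6 tests and no B1 UMI, no adjusted p of these share tests could fall under the threshold, and they show neither a difference nor its absence. In the nuclei C2 was 65.4% (exact binomial 95% interval 61.4 to 69.1) of C subunit UMIs in marginal, 57.9% (48.5 to 66.8) in basal, 34.8% (16.4 to 57.3) in spindle/root and 17.6% (12.0 to 24.6) in intermediate nuclei. Erythroid and B cell nuclei, taken as background, had 29.7% (15.9 to 47.0) and 11.5% (2.45 to 30.2). The intervals of spindle/root and intermediate nuclei overlapped with both of these. Those of marginal and basal nuclei lay above both. Cells and nuclei are different assays with different gene lists, and their shares are not compared.

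**Figure D2:**
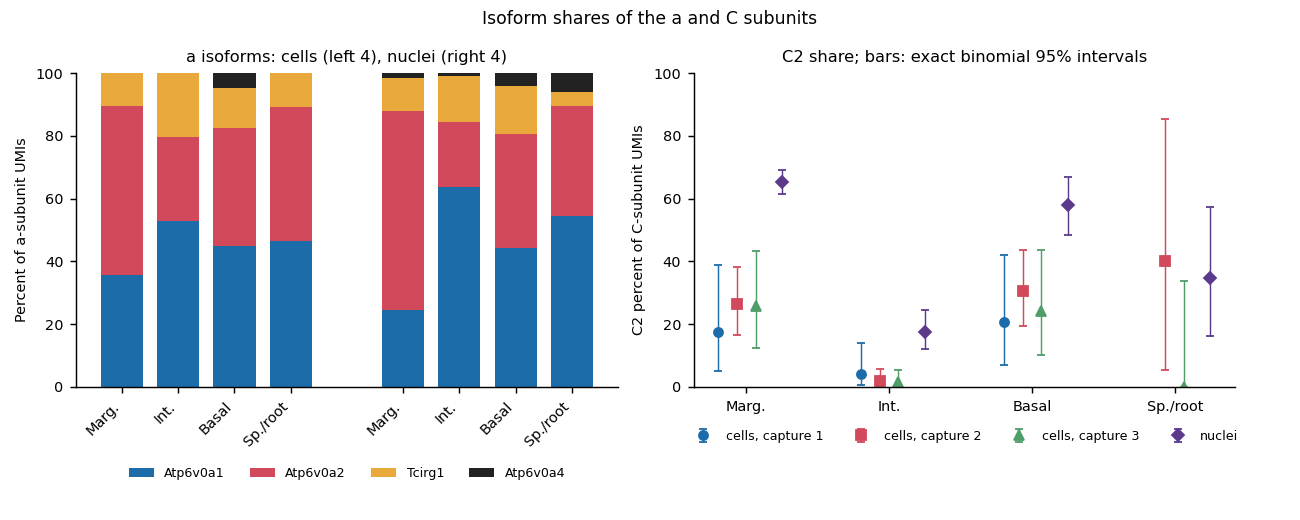
Left, make-up of the a-subunit UMIs in percent (y axis, 0 to 100) in whole cells over all captures and in nuclei, by type, for the isoforms a1 (Atp6v0a1), a2 (Atp6v0a2), a3 (Tcirg1) and a4 (Atp6v0a4). Right, C2 as a percent of C-subunit UMIs by type, one point per capture and one for nuclei, with exact binomial 95% intervals; marginal nuclei stood at 65.4% and intermediate nuclei at 17.6%.

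For the other C isoform no difference was called. Atp6v1c1 was at 67.6 ± 8.78 CPM (SD, n = 3) in marginal, 48.6 ± 4.21 in intermediate and 50.8 ± 1.82 in basal cells and at 21.4 and 70.0 CPM in the spindle/root cells of captures 2 and 3. In nuclei it ranged from 46.2 CPM in basal to 51.0 CPM in intermediate nuclei, with 41.8 CPM (23.4 to 68.9) in spindle/root nuclei.

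Marginal and intermediate cells differed in the make-up of their a-subunit UMIs. Atp6v0a2, the a2 isoform known from the Golgi and endosomes, was at 75.1, 71.1 and 100 CPM in the marginal cells of the 3 captures, above the 31.1 to 67.2 CPM of basal, 33.5 to 45.7 CPM of intermediate and 28.5 to 46.6 CPM of spindle/root cells. The marginal sums did not overlap with those of any other type. Marginal cells stood above the mean of the other types by 0.89 on the log2 scale (SE 0.22; edgeR adjusted p = 0.0011; 3 of 3 captures). Atp6v0a1, the a1 isoform known from neurons and secretory vesicles, was at 82.2, 75.4 and 76.6 CPM in intermediate cells, above 39.5 to 57.9 CPM in marginal, 42.2 to 64.5 CPM in basal and 23.3 and 57.0 CPM in spindle/root cells. It was higher in intermediate cells by 0.97 (SE 0.17, edgeR adjusted p = 2.3e-06, 3 of 3 captures), and these sums too did not overlap with the others.

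In the nuclei, too, Atp6v0a2 had its highest level among the 4 types in marginal and Atp6v0a1 in intermediate nuclei, while spindle/root nuclei came second for both. Atp6v0a2 was at 128 CPM (118 to 139) in marginal, 66.8 (42.8 to 99.4) in spindle/root, 49.0 (40.7 to 58.5) in intermediate and 48.9 (36.7 to 63.8) in basal nuclei. Atp6v0a1 was at 149 CPM (134 to 165) in intermediate, 103 (72.5 to 142) in spindle/root, 59.7 (46.2 to 76.0) in basal and 50.0 (43.6 to 57.1) in marginal nuclei. The intervals of intermediate and spindle/root nuclei overlapped for Atp6v0a1. As a share of all a-subunit UMIs with a3 included, a2 made up 53.9% (47.0 to 60.6) in marginal cells and 63.2% (59.9 to 66.4) in marginal nuclei. In intermediate cells and nuclei a1 made up 52.8% (49.6 to 56.1) and 63.6% (59.5 to 67.5). Tcirg1 (a3) held 20.4% (17.9 to 23.2) in intermediate and 10.5% (6.77 to 15.3) in marginal cells. In basal cells a1 and a2 stood at 45% (37.7 to 52.4) and 37.6% (30.6 to 44.9). The antisense transcript 4930404A12Rik overlaps an exon of Atp6v0a2.

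In spindle/root cells the a isoforms rested on few UMIs. The 36 cells held 13 UMIs of Atp6v0a1, 12 of Atp6v0a2, 3 of Tcirg1 and 0 of Atp6v0a4. The 12 UMIs of Atp6v0a2 lay in 6 cells, 4 of the spindle-like and 2 of the root-like cluster. These 2 cells were placed among root-like cells by their cluster and held 0 UMIs of Epyc, Slc26a4 and Anxa1. Further root-like cells without Atp6v0a2 also held 0 UMIs of all of these genes. Such cells had 3957, 5601 and 7762 UMIs in capture 2 and 2021 UMIs in capture 3. The root-like markers other than Epyc were not read cell by cell. The 6 cells with Atp6v0a2 held 15 to 166 UMIs of Dct (median 38), the dopachrome tautomerase of pigment cells. The other 30 held 0 to 52 (median 1), with 15 or more in 4 of them. The cells with Atp6v0a2 were also deeper, with a median of 13399 UMIs against 6629. The part of intermediate RNA, or of depth, in these counts was not tested. In the nuclei, root-like nuclei had Atp6v0a1 at 136 CPM (91.3 to 196), spindle-like nuclei at 54.6 CPM (23.6 to 108). The intervals overlapped and rest on 29 and 8 UMIs. For Atp6v0a2, 61.1 (32.5 to 104) and 75.1 CPM (37.5 to 134) in root-like and spindle-like nuclei could not be told apart. The Dct level was 1781 CPM in root-like and 2300 CPM in spindle-like nuclei, against 26206 CPM in intermediate nuclei.

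**Figure D3:**
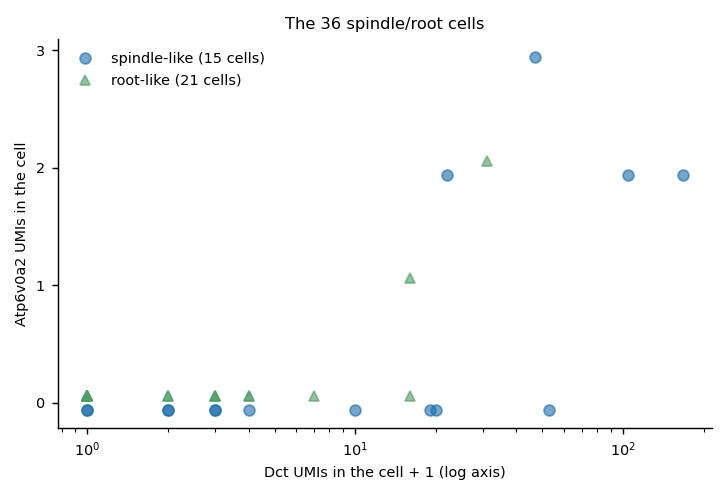
UMIs of Atp6v0a2 (y axis) against UMIs of the intermediate-cell marker Dct plus 1 (x axis, log scale) in each of the 36 spindle/root cells, with circles for 15 spindle-like and triangles for 21 root-like cells, shifted slightly in height so that both can be seen. The 6 cells with an Atp6v0a2 UMI all held 15 or more Dct UMIs, 15 being the lowest count among them. Of the other 30 cells, 4 also held 15 or more.

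In marginal cells 3 of the 8 members tested were higher, against a background of 15.1% of all genes tested, and none was lower (background 12.3%, or 27.3% in either direction). Beside Atp6v1c2 and Atp6v0a2, this was Atp6v1h, the H subunit that couples ATP splitting to proton movement. It was at 59.3, 40.8 and 49.0 CPM in marginal cells, against 15.6 to 37.6 CPM in basal, 25.2 to 26.7 CPM in intermediate and 28.5 and 23.3 CPM in spindle/root cells. The log2 difference was 0.73 (SE 0.27, edgeR adjusted p = 0.034, higher in 3 of 3 captures). The call for Atp6v1h was kept in 7 of 15 alternatives, 1 of which (at least 10 cells per sum) used the same sums. Over the 15, in edgeR or DESeq2, log2 differences ran from 0.54 to 0.94 and adjusted p-values from 0.012 to 0.228. In nuclei Atp6v1h was at 104 CPM (95 to 114) in marginal nuclei, above 76.9 (66.4 to 88.7) in intermediate and 69.7 (55.0 to 87.1) in basal nuclei. An Atp6v1h UMI was held by 15.8% of marginal, 11.9% of intermediate, 10.6% of basal and 11.5% of 208 spindle/root nuclei. Rgs20 overlaps an exon of Atp6v1h on the opposite strand. The median log2 difference of the 8 members was 0.24, against 0.0046 for all genes. When the marginal cluster with the highest Dct level (53 of 132 cells, 7938 CPM of Dct, against 2672 and 299 CPM in the other 2 clusters) was left out, Atp6v1c2 was higher by 2.19, Atp6v0a2 by 1.22 and Atp6v1h by 0.89. All 3 remained called, and Atp6v0a1 became lower, by -0.91 (edgeR adjusted p = 0.039).

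In intermediate cells 3 members were higher (background 18%) and 1 was lower (background 19.1%, or 37.2% in either direction). Beside Atp6v0a1 and Atp6v1c2, Atp6v1b2, which encodes the B2 subunit, was higher by 0.57 (SE 0.15, edgeR adjusted p = 0.0012), with 92.4, 95.6 and 76.2 CPM in intermediate, 62.4 to 75.0 CPM in marginal, 73.3 to 84.5 CPM in basal and 57.0 and 85.5 CPM in spindle/root cells. Atp6v1a, which encodes the catalytic A subunit, was higher by 0.41 (SE 0.12, edgeR adjusted p = 0.0036). Its mean level was 216 CPM in intermediate cells, under the 232 CPM of marginal cells, with 215 CPM in basal and 157 CPM in spindle/root cells. For both genes the sums of intermediate cells overlapped with those of other types, and they were higher in 2 of 3 captures. Both calls were tied to the scaling between sums. Without trimmed-mean (TMM) scaling the log2 differences of Atp6v1a and Atp6v1b2 were 0.10 and 0.26 (edgeR adjusted p = 0.543 and 0.159), while the median of all genes moved to -0.31. In nuclei Atp6v1b2 was at 92.7 CPM (81.1 to 106) in intermediate, 56.2 (49.4 to 63.7) in marginal and 57.9 (44.6 to 74.0) in basal nuclei. Atp6v1a was at 130 CPM (116 to 145) in intermediate, 97.0 (88.0 to 107) in marginal and 67.0 (52.6 to 84.1) in basal nuclei. In these nuclei the intervals of intermediate nuclei lay above those of marginal and basal nuclei for both genes. The Atp6v1a interval of spindle/root nuclei, given below, overlapped with that of intermediate nuclei. For Atp6v1b2 the spindle/root nuclei held only 20 UMIs. Slc18a1 overlaps an exon of Atp6v1b2 on the opposite strand.

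In basal cells 1 member, Atp6v1c2, was higher (background 16.1%) and none was lower (background 10.5%, or 26.6% in either direction). The other 7 tested members had log2 differences from -0.30 to 0.21.

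In spindle/root cells the catalytic subunit was called lower. Atp6v1a (chromosome 16, 44085402 to 44139705, reverse strand) was at 142 and 171 CPM in the spindle/root cells of captures 2 and 3, under every sum of marginal (213 to 250 CPM), intermediate (197 to 231 CPM) and basal cells (191 to 235 CPM). The 4 spindle/root cells of capture 1 had 210 CPM, within the range of the other types. Against the mean of the other types Atp6v1a fell by 0.73 on the log2 scale (SE 0.22, edgeR adjusted p = 0.013, lower in 2 of 2 captures). It was the 1 member called lower (background 6.71%), and none was higher (background 12.1%, or 18.8% in either direction). This call was kept in 11 of 17 alternatives, 1 of which (at least 10 cells per sum) used the same sums, with log2 differences from -1.51 to -0.46. It was lost without capture 2 (-0.66, edgeR adjusted p = 0.201), without capture 3 (-0.87, edgeR adjusted p = 0.0692), without TMM scaling (-0.46, edgeR adjusted p = 0.154), in DESeq2 (-0.71, adjusted p = 0.0528), with spindle-like cells alone (-0.67, edgeR adjusted p = 0.102) and without the marginal cluster with the most Dct (-0.67, edgeR adjusted p = 0.0509). All 8 tested members had a log2 difference under 0 in spindle/root cells, with a median of -0.51 against -0.024 for all genes. Without TMM scaling these medians were -0.25 and 0.24. For Atp6v0d1 the fitted difference was -0.17 although its CPM was above the mean of the other types in 2 of 2 captures. These cells had a median mitochondrial share of 12.1% of UMIs, against 25.3% to 32.0% in the other 3 types; with mitochondrial genes left out the Atp6v1a difference was -0.71, still called. In the nuclei basal, not spindle/root, had the lowest value of the 4 types. Atp6v1a was at 91.9 CPM (63.2 to 129) in spindle/root nuclei and 97.0 CPM (88.0 to 107) in marginal nuclei, and basal nuclei stood at 67.0 CPM (52.6 to 84.1), an interval that overlapped with that of spindle/root nuclei.

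**Figure D4:**
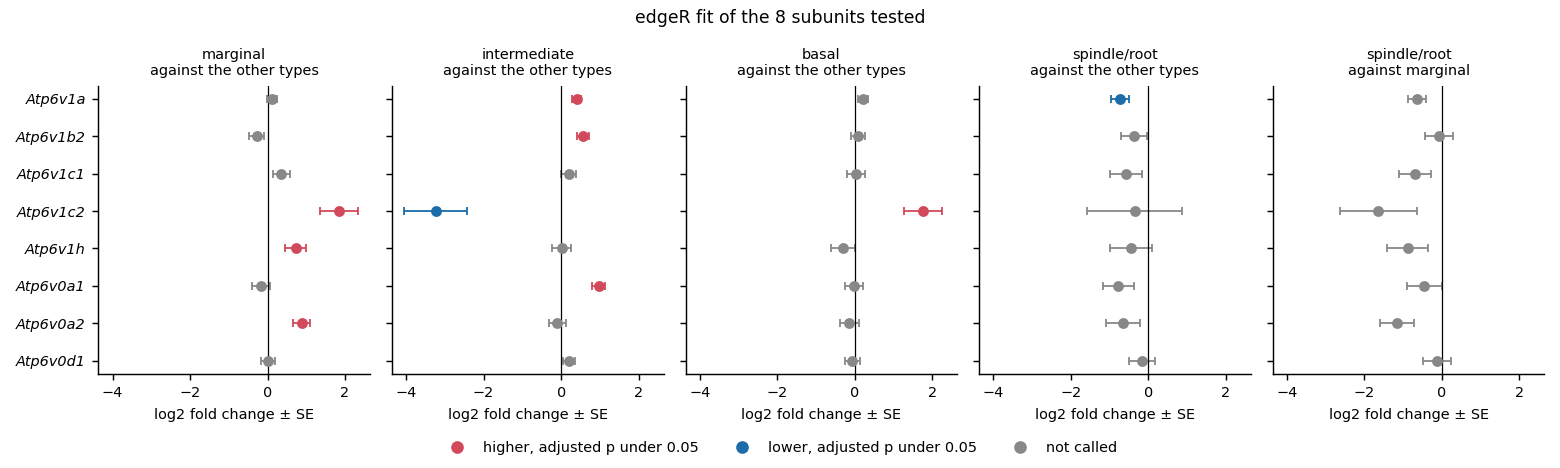
log2 fold change of the 8 members tested (x axis, points with bars of 1 SE) in 5 comparisons of summed whole-cell counts, from the edgeR quasi-likelihood fit. Red points are higher and blue points lower at an adjusted p under 0.05; Atp6v1c2 ran from -3.24 in intermediate to 1.84 in marginal cells.

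Set directly against marginal cells, spindle/root cells had 0 of 8 members called by edgeR (background 10.3% higher, 7.96% lower and 18.2% in either direction), with 2 members at an unadjusted p under 0.05. These were Atp6v1a, with a log2 difference of -0.64 (SE 0.24, edgeR adjusted p = 0.055), and Atp6v0a2, with -1.15 (SE 0.44, edgeR adjusted p = 0.060). Both were lower in 2 of 2 captures. DESeq2 also called none. The differences of the 8 members ran from -1.64 for Atp6v1c2 (SE 0.99) to -0.065 for Atp6v1b2 (SE 0.36). Their SEs ran from 0.24 to 0.99. Root-like cells alone had Atp6v1a at 144 CPM from 20 UMIs, and spindle-like cells at 183 CPM from 36 UMIs. Of these, 32 UMIs lay in 6 cells with 8 to 32 UMIs of the marginal marker Kcne1 and 18 to 166 of Dct, at 270.2 CPM. The other 9 spindle-like cells, with 0 or 1 Kcne1 UMI and 0 to 103 Dct UMIs, held 4 UMIs of Atp6v1a, or 51.1 CPM. This division was chosen after its values were seen, and the part of marginal or intermediate RNA in the level was not tested. In nuclei they were at 79.9 (46.6 to 128) and 109 CPM (62.4 to 177), with intervals that overlapped.

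**Figure D5:**
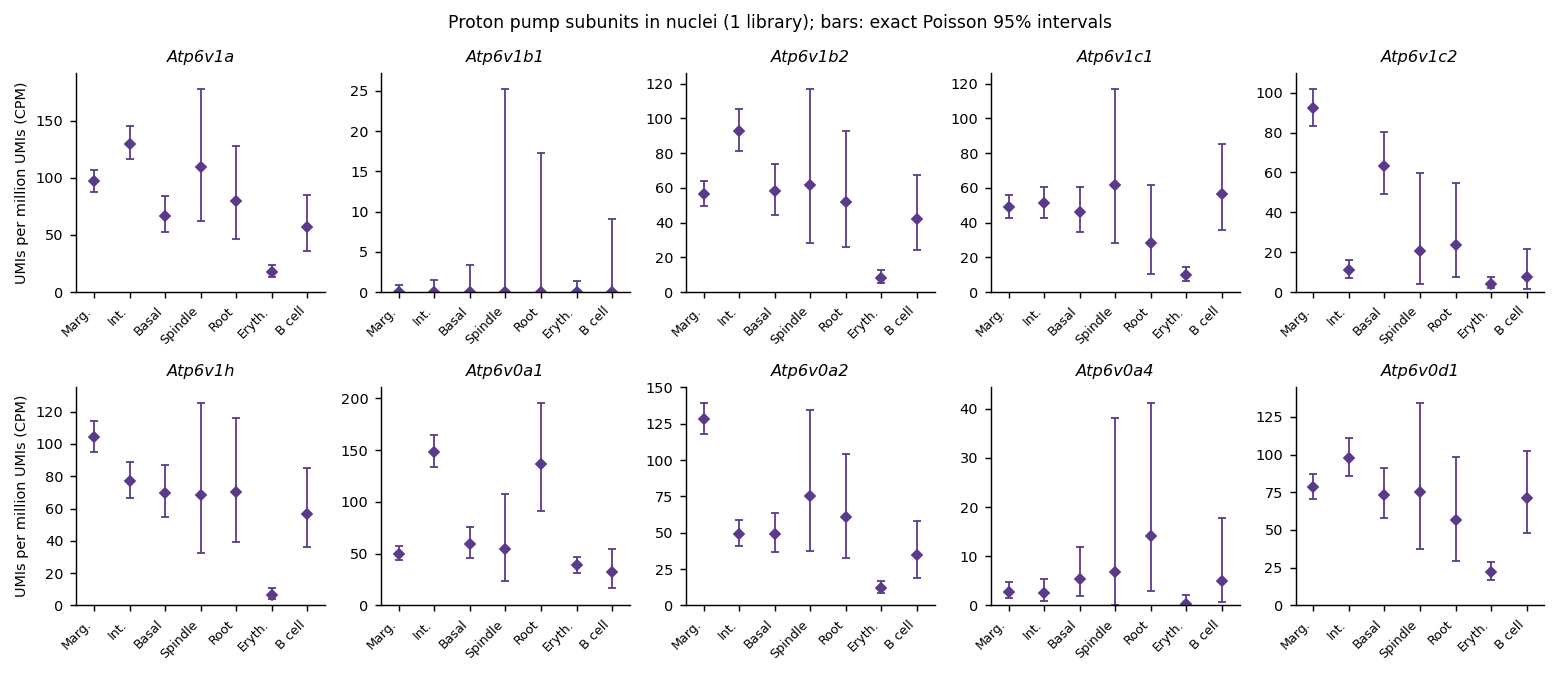
Level of each of the 10 subunit genes in the nuclei library (y axis, UMIs per 1000000 UMIs, linear, from 0) by type, with spindle-like and root-like nuclei apart and erythroid and B cell nuclei as background. Bars are exact Poisson 95% intervals that cover counting error only; Atp6v0a2 lay at 128 CPM in marginal nuclei and Atp6v0a1 at 149 CPM in intermediate nuclei.

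Atp6v0d1, which encodes the d1 subunit that links V1 to V0, was called in no comparison. Its means were 83.7 ± 26.8 CPM in marginal, 70.1 ± 13.6 in intermediate and 68.8 ± 3.25 in basal cells (SD, n = 3), and 71.2 and 70.0 CPM in spindle/root cells. Its nuclei levels ran from 64.0 CPM (40.6 to 96.1) in spindle/root to 97.6 CPM (85.7 to 111) in intermediate nuclei. Atp6v1b2 likewise had no called difference in marginal, basal or spindle/root cells. In erythroid cells the 8 members other than Atp6v1b1 and Atp6v0a4 ran from 0 CPM for Atp6v0a2 and Atp6v1c2 to 28.5 CPM for Atp6v0d1.

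The remaining subunits and accessory proteins of the pump were taken as a list of 16 genes, of which 12 had a UMI in whole cells and 10 were tested. In marginal cells 2 were higher and 1 was lower, or 3 of 10 against a background of 27.3% in either direction. Atp6ap1, which encodes the accessory protein Ac45, was higher by 0.79 (SE 0.13) and Atp6v1d by 0.55 (SE 0.14), both in 3 of 3 captures, and Atp6v0e fell by 0.69 (SE 0.13; edgeR adjusted p = 1.6e-06, 0.0018 and 1.2e-05). The mean level of Atp6v0e was 171 CPM in both marginal and intermediate cells and 193 CPM in basal cells. Spindle/root cells, which enter the mean that marginal cells were set against, had 475 CPM. In intermediate cells 6 were higher, with Tcirg1 at 1.61 (SE 0.30, edgeR adjusted p = 8.4e-06) the largest, and 2 were lower (background 18% and 19.1%). Without TMM scaling 2 were higher and 4 lower, with a list median of 0.068 that stood above the median of -0.31 for all genes. In spindle/root cells Atp6v0e was higher by 1.25 (SE 0.17, edgeR adjusted p = 1.2e-08) and Atp6v1f by 0.58 (SE 0.17, adjusted p = 0.012), both in 2 of 2 captures (background 12.1%). Atp6ap2, the prorenin receptor, fell by 0.63 (SE 0.23, edgeR adjusted p = 0.049; background 6.71% lower). Root-like nuclei had Atp6v0e at 414 CPM, spindle-like nuclei at 184 CPM and marginal nuclei at 155 CPM, and B cell and neutrophil nuclei had 377 and 447 CPM. Atp6v0b was lower in basal cells (-0.34, SE 0.13, edgeR adjusted p = 0.049), the 1 of 10 called there (background 26.6% in either direction).

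Of 11 genes for assembly and regulation of the pump, 8 were tested. Intermediate cells had Dmxl2 and Wdr7, which encode partners in the RAVE-like assembly complex, higher by 2.13 (SE 0.28) and 1.3 (SE 0.38), and Oxr1, a TLDc-domain protein, fell by 0.49 (SE 0.17), against a background of 18% higher and 19.1% lower. The mean levels of Wdr7 were 22.2 CPM in intermediate, 20.8 in basal and 16.8 in marginal cells, and those of Dmxl2 were 65.1, 38.7 and 39.5 CPM. Both genes had 1 UMI over all captures in spindle/root cells, which enter the mean that intermediate cells were set against. In spindle/root cells Dmxl2 was called lower (edgeR adjusted p = 0.00028) with 1 UMI over all captures, and in marginal and basal cells none of the 8 was called. Of 18 lysosome genes, 16 were tested. In intermediate cells 9 were higher and none was lower, with a list median of 0.58 against -0.0074 for all genes and a background of 18% higher and 19.1% lower. Among them were Ctsb and Ctsd, which encode cathepsins B and D, at 1.26 (SE 0.095) and 0.81 (SE 0.10), and the membrane protein Lamp2 at 0.85 (SE 0.11). Without TMM scaling 6 were higher and 2 lower. In spindle/root cells 4 of 16 were lower (Lamp2, Ctsb, Ctsd and Gusb, the last with 0 UMIs there), with a list median of -0.73 and a background of 6.71% lower, and in basal cells none was called. In marginal cells 2 were higher (Tpp1, Ctsd) and 2 lower (Ctsl, Hexa), or 4 of 16 against 27.3% in either direction.

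Over the 11 sums, the genes whose log2(CPM + 1) was most like that of Atp6v1c2 were P2ry2 (Pearson r = 0.973), Hbs1l (0.939), Tnfsf13os (0.936), Uhmk1 (0.932) and Ddb1 (0.930). The sums share captures and depth, and the values are descriptions. No such list could be made for Atp6v1b1 and Atp6v0a4, which were not tested in the main fit.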

How the data were processed

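The deposited values were counts: unique molecular identifiers (UMIs) per gene and barcode, which the authors had made with Cell Ranger 2.0.0 on mm10 per the labels' processing notes. Whether reads in introns or on the opposite strand were counted is not given in the sources used here. Members and gene lists were chosen with earlier results of these data known. Named genes were all 10 members, genes of the lists called in marginal or spindle/root cells or named for their role, and the 5 genes most like Atp6v1c2. Columns of samples of other series numbered 0.

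Barcodes under 200 genes were left out, and Scrublet (scanpy 1.11.5) removed 0.8% of barcodes per 1000 as doublets, which came to 1, 15 and 20 cells and 978 nuclei. Clusters (Seurat 5.3.0, 2000 variable genes without the listed genes, resolution 0.8) were named where at least 3 fixed markers were raised 2-fold. Unnamed clusters held 53.8% of cells and 40.1% of nuclei and were not compared. UMIs were summed per capture and type (at least 5 cells) and tested with edgeR 4.0.16 (quasi-likelihood, TMM, low counts filtered, capture as a block, Benjamini-Hochberg adjustment) in R 4.3.3, with DESeq2 1.42.0 as an alternative. The sums of 1 capture come from 1 cell suspension, which pairs them; deviations of same-numbered sums correlated at 0.0422 to 0.172 over 15 pairs. Isoform shares were compared with exact two-sided permutation tests within captures. Nuclei formed 1 library and were not tested. Intervals are exact Poisson or binomial 95% intervals, floors are 3 counts, and both cover counting error only. The code was tested on simulated data. Alternatives were another scaling, filter, block, resolution, doublet setting or minimum of cells, and leaving out each capture.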

Additional observations from a re-analysis of the deposited data

How the results depend on the processing

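Alternatives with at least 4 cells per sum, without mitochondrial genes and without the marginal cluster with the most Dct were chosen after seeing the data. The alternative with at least 10 cells per sum left every sum unchanged, since the smallest held 16 cells. It could only repeat the main result, and it is counted in the numbers of alternatives given here and above. The calls of Atp6v1c2 in marginal (1.47 to 2.19), basal (1.48 to 1.89) and intermediate cells (-3.55 to -2.73) held in 13 of 13 alternatives that could test it, and those of Atp6v0a2 in marginal (0.79 to 3.45) and Atp6v0a1 in intermediate cells (0.66 to 1.43) in 15 of 15. The 3.45 came with no doublets removed, and the next highest was 1.40 with listed genes allowed in clustering. Atp6v1c2 was not tested without capture 2 or with at least 4 cells per sum, where it failed the filter on low counts. All 13 alternatives that tested it therefore included capture 2. Numbers of members called follow, with the genes called among all genes tested in the same setting. Leaving out 1 capture gave 1 to 3 in marginal cells (3 in all captures), 2 to 4 in intermediate cells (4), 0 to 1 in basal cells (1), 0 to 1 in spindle/root cells (1) and 0 to 1 for spindle/root against marginal cells (0). All genes called in these fits numbered 1339 to 1790, 1985 to 2526, 1215 to 1669, 786 to 1324 and 772 to 1255 in the same order, of 7655 to 9392 tested. No TMM scaling gave 2 in intermediate (3180 of 7127 genes) and 0 in spindle/root cells (1466 of 7127), and DESeq2 0 in spindle/root cells (1052 of 7127). No filter gave 2 in basal cells (2000 of 15604 genes) and 2 for spindle/root against marginal cells (1295 of 15604). The 2 in basal cells were Atp6v1c2 and Atp6v0a4, the latter being tested in this setting only. With no doublets removed there were 3 in basal cells, 3 in spindle/root cells and 3 for spindle/root against marginal cells (1938, 1606 and 1561 of 7336 genes). At resolution 0.4 there were 2 in each (1940, 1635 and 1590 of 7238 genes). Listed genes allowed in clustering gave 2 in spindle/root cells and 2 against marginal cells (1391 and 1340 of 7218 genes), and resolution 1.2 gave 1 against marginal cells (1451 of 8993). Spindle-like cells alone gave 0 against the other types (789 of 7280 genes), and root-like cells alone gave 1 against marginal cells (1114 of 7265). At least 4 cells per sum gave 0 in basal cells and 1 for spindle/root against marginal cells (1794 and 1431 of 6624 genes). Without the marginal cluster with the most Dct there were 0 in spindle/root cells and 1 against marginal cells (1057 and 1054 of 6777 genes). Without the replicate block 2 members were called for spindle/root against marginal cells in place of 0 (1255 of 7127 genes), and the member counts in the other comparisons did not change. Directions turned for members that were not called. Atp6v1a in marginal cells was -0.078 without the Dct cluster. Atp6v0a1 in marginal cells was 0.31 with no doublets removed and -0.38 to 0.028 with 1 capture left out. Against marginal cells, spindle/root cells had it at 0.29 without the Dct cluster and at -1.22 to 0.029 with 1 capture left out. Atp6v0a2 was 2.51, 0.35 and 0.36 in intermediate and 2.49, 0.31 and 0.34 in basal cells with no doublets removed, at resolution 0.4 and with listed genes allowed. With 1 capture left out it ran from -0.34 to 0.14 and from -0.34 to 0.16. In the setting with no doublets removed the spindle/root sums held 0 UMIs of Atp6v0a2 in 30 cells, so that these fits rest on a count of 0. The C2 share difference of spindle/root cells was -1.71 points at resolution 0.4, -3.64 with at least 4 cells, -0.304 without the Dct cluster and -17.1 to 20.3 with 1 capture left out. The cause was not tested in any of these cases. Genes called in spindle/root cells numbered 1338, against 816 without capture 2, 786 without capture 3 and 789 in spindle-like cells alone. Against marginal cells there were 1298, and 777, 772 and 730 in these settings. Basal cells had 1893, and 1215 without capture 2. Of the called genes, 1073 of 1949 were higher in marginal cells (1342 of 1974 without TMM scaling), 1286 of 2649 in intermediate cells (748 of 3180), 860 of 1338 in spindle/root cells (1187 of 1466, and 798 of 1052 in DESeq2) and 731 of 1298 against marginal cells (603 of 909 in DESeq2).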
